A study of Mus musculus with 16 samples.

Results

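Antioxidant and glutathione genes were followed as a list of 41 members among the 39179 genes counted, chosen by name from the superoxide dismutases, peroxidases, thioredoxins, the glutathione system and the NRF2 pathway. RNA from the brain of 16 mice was sequenced, with 4 mice in each of 4 groups. These were wild-type (WT) mice of 3 months, mice homozygous for the V338Y exchange in *MRPS5* of 3 months, WT mice of 19 months and V338Y mice of 19 months. *MRPS5* encodes a protein of the small mitochondrial ribosomal subunit, the knock-in exchange is present in every cell, and all mice had the C57/BL6 background without further treatment. The study's methods name total cortex of female mice, whereas the sample labels give brain as tissue and the submitters' extraction protocol names muscle.

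Superoxide that leaks from the respiratory chain is turned into hydrogen peroxide by superoxide dismutases. Catalase, glutathione peroxidases and peroxiredoxins then remove the peroxide, and the thioredoxin and glutathione systems return the peroxidases and other oxidised proteins to their reduced form. NRF2, the product of *Nfe2l2*, is held in the cytosol by KEAP1 and, once released, activates many of these genes through antioxidant response elements in their promoters. In the brain, astrocytes are known for high NRF2 activity and for supplying neurons with precursors of glutathione.

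The libraries held between 6181448 and 19601664 counts. The young and the old mice differed in more than age. Summed over 4 Y-linked genes, all 8 libraries of 3 months had between 242 and 287 CPM (counts scaled to a common library size), and all 8 of 19 months had 0, while *Xist* was at most 1.19 CPM in the former and at least 705 CPM in the latter, although all mice are described as female. Markers of cerebellum, summed over 5 genes, were between 195 and 576 CPM in 7 libraries of 3 months, 11.4 CPM in that of V338Y mouse 14 and between 3.03 and 5.14 CPM at 19 months. Cortical excitatory markers, all 5 detected in every library, were between 590 and 754 CPM. General neuron markers (8 genes) summed to between 4140 and 4800 CPM at 3 months and between 3790 and 4150 CPM at 19 months, and 5 of them were lower and 1 higher with age in WT mice (median log2 change -0.36), 4 lower and 1 higher in V338Y mice (-0.18). Oligodendrocyte markers (7 genes) summed to between 3660 and 4600 CPM at 3 months and between 6160 and 7210 CPM at 19 months. Of them, 4 were higher and 1 lower with age in WT mice, 4 higher and 0 lower in V338Y mice. Astrocyte markers (7 genes) summed to between 2850 and 3530 CPM at 3 months and between 6040 and 7410 CPM at 19 months. Over the same ages endothelial markers (5 genes) went from a range of 191 to 205 CPM to one of 829 to 977 CPM, meningeal markers (7 genes) from 84.6 to 122 CPM to 251 to 329 CPM, microglial markers (8 genes) from 233 to 328 CPM to 521 to 599 CPM, pituitary markers (4 genes) from 1.19 to 2.58 CPM to 21.3 to 116 CPM, and red blood cell markers (5 genes) from 124 to 256 CPM to 384 to 900 CPM. All differences between ages given here therefore cannot be told apart from those of sex-linked transcripts. Nor can they be told apart from dissected region. Cerebellum markers were between 195 and 387 CPM in young and between 3.03 and 4.75 CPM in old WT mice. In V338Y mice they were between 11.4 and 576 CPM in the young and between 3.86 and 5.14 CPM in the old, without overlap. Fits with cerebellum or red blood cell markers as a covariate are given below, and the part of the other cell types was not tested. In bulk tissue, fewer cells of a type and less RNA per cell cannot be told apart either.

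Motif matches are shown first, because NRF2 is known to activate many genes of these systems. The core letters of the antioxidant response element, TGACNNNGC, were searched on both strands in RefSeq promoters of build GRCm38.p6 from 250 bases before to 50 bases after the start. A promoter was in the table for 34 members, and 8 of them (23.5%) held the motif. It was present for 14% of the 27025 genes with a promoter of this length and in 12.4% of all 32851 promoters. The upstream matches are printed 5′ to 3′ in the direction of the gene, with the motif or its reverse complement in capitals.
Sod1: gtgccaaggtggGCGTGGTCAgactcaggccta
Prdx1: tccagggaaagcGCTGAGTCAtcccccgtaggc
Txnrd1: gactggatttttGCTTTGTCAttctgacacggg
Gclm: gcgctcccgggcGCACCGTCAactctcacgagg
Gstm5: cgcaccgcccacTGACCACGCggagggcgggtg
Gstm7: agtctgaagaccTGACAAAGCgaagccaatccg
Nfe2l2: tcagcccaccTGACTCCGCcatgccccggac
They lie at chr16:90220694-90220726 (plus strand) for *Sod1*, chr4:116685454-116685486 (plus) for *Prdx1*, chr10:82859102-82859134 (plus) for *Txnrd1*, chr3:122245411-122245443 (plus) for *Gclm*, chr3:107895800-107895832 (plus) for *Gstm5*, chr3:107931723-107931755 (minus) for *Gstm7* and chr2:75704883-75704913 (minus) for *Nfe2l2*. All are promoter sequence outside the transcript of the start used. In *Srxn1* the match lies past the start. A match is a description of letters and was not tested as a binding site. Of the members with a promoter in the table, the motif was found in 2 of 7 that were higher with age in both genotypes and in 4 of 16 that were lower in both.

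With the filter of at least 10 counts in 2 mice of a group, 39 of the 41 members were tested. *Gstp1*, a glutathione transferase of the cytosol, was listed at 0 in all 16 libraries. *Txnrd2*, the mitochondrial thioredoxin reductase, had 9 counts in total, spread over 7 libraries. For the other members, the coefficient of variation between mice had a median of 5.46% in young WT, 9.13% in young V338Y, 5.61% in old WT and 4.78% in old V338Y mice. Per kilobase of exon, the highest mean levels in young WT mice were those of *Gstm5* (78.5 CPM per kb), *Prdx5* (73.9 CPM per kb), *Gpx4* (73.3 CPM per kb) and *Gstm1* (72.6 CPM per kb). At 19 months *Gstm1* was the highest in both genotypes, with 106 CPM per kb in WT and 96.2 CPM per kb in V338Y mice. *Sod3* had the lowest level of the tested members in both young groups, with 0.728 CPM per kb in WT and 0.712 CPM per kb in V338Y mice.

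The first question was how the list changed with age in each genotype. In WT mice, 10 members were higher and 19 lower at 19 months than at 3 months, and 10 did not pass the test (edgeR quasi-likelihood test, adjusted p under 0.05). Over all genes tested, 62.8% passed in this comparison, 31.4% higher and 31.5% lower. The levels of the age groups did not overlap for 30 members, against 55.4% of all genes. In V338Y mice, 12 members were higher, 19 lower and 8 did not pass, where 48.8% of all genes passed (23.1% higher, 25.7% lower). Here, too, the levels of 30 members did not overlap, against 44.2% of all genes. The median log2 fold change of the members was -0.18 in WT and -0.13 in V338Y mice, that of all genes tested -0.0050 and -0.03.

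Calls were then compared between the genotypes, where 62.8% of all genes passed in WT and 48.8% in V338Y mice. There were 10 members higher in both genotypes, 18 lower in both and 0 with opposite calls. *Gstm7* passed in WT mice only, *Gpx3*, *Gclc* and *Nqo1* passed in V338Y mice only, and 7 members passed in neither, namely *Gpx1*, *Gpx4*, *Prdx1*, *Prdx4*, *Gss*, *Gsta4* and *Keap1*. The log2 changes with age of the 39 members had a Pearson correlation of 0.954 between the genotypes, given as a description since members share libraries and depth. The age change was the smaller one in V338Y mice for 22 of the 39 members tested, and for 19 of the 28 that passed in both. The shared calls, the correlation and the counts of smaller changes were not set against those of all genes.

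**Figure D1:**
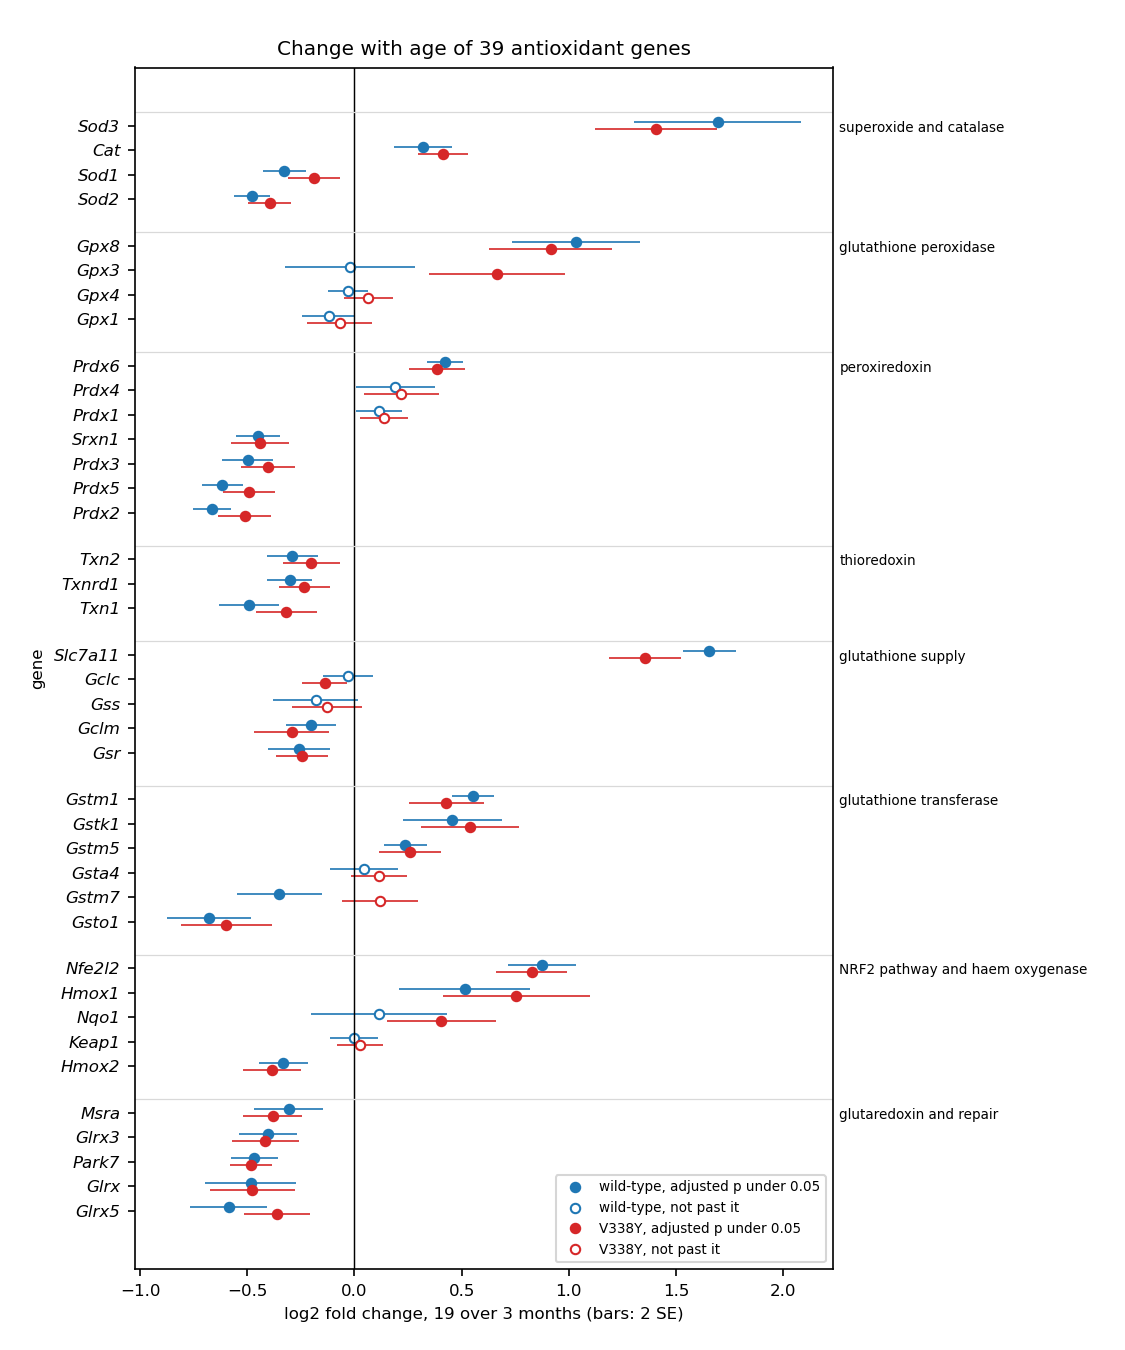
Log2 fold change between 19 and 3 months for the 39 members tested, grouped by role, in WT (blue) and V338Y mice (red), with 2 standard errors either way and filled circles where the adjusted p was under 0.05. Both colours lie on the same side of 0 for every member filled in both, and *Sod3* and *Slc7a11* lie farthest to the right.

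Among the enzymes that handle superoxide, the secreted form was higher at 19 months, and the cytosolic and the mitochondrial form were lower. *Sod3*, the extracellular superoxide dismutase, was at 4.19, 1.65, 1.95 and 3.10 CPM in young WT mice and at 8.13, 9.10, 7.80 and 7.94 CPM in old ones. In young V338Y mice it was at 2.81, 2.115, 2.81 and 2.91 CPM, in old ones at 7.06, 6.86, 6.58 and 7.77 CPM. In both genotypes the ages did not overlap, and the rise was 3.24-fold in WT (log2 1.69 ± 0.19 SE, adjusted p = 2.36e-08) and 2.65-fold in V338Y mice (log2 1.41 ± 0.14, adjusted p = 5.79e-06). *Sod2*, which encodes the manganese enzyme of the mitochondrial matrix, went from 177 ± 4.02 CPM (SD, n = 4) to 126.4 ± 0.382 CPM in WT mice, a log2 change of -0.48 ± 0.04 SE. In V338Y mice it went from 172 ± 8.17 to 131 ± 3.45 CPM (log2 -0.40 ± 0.05). *Sod1*, the cytosolic copper and zinc enzyme, was 20.4% lower in old WT mice, with a log2 change of -0.33 ± 0.05 in WT and -0.19 ± 0.06 in V338Y mice. *Cat*, the peroxisomal catalase, was higher in both, by a log2 of 0.32 ± 0.07 and 0.41 ± 0.06.

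The glutathione peroxidases differed from each other. *Gpx8*, of the endoplasmic reticulum, rose 2.05-fold in WT and 1.89-fold in V338Y mice, from 3.65 ± 0.199 to 7.29 ± 0.972 CPM and from 3.64 ± 0.587 to 6.99 ± 0.843 CPM. *Gpx1* and *Gpx4*, the widely expressed forms of cytosol and mitochondria, passed the test in neither genotype. Their log2 changes were -0.12 and -0.03 in WT and -0.07 and 0.07 in V338Y mice. *Gpx3*, the secreted form, was at 6.16, 5.75, 5.67 and 4.65 CPM in young and at 6.28, 4.63, 5.52 and 5.07 CPM in old WT mice. In V338Y mice it was at 4.91, 3.22, 3.23 and 3.27 CPM at 3 months and at 6.05, 5.19, 5.69 and 6.365 CPM at 19 months. The WT groups overlapped, while the V338Y groups did not, with a log2 change of 0.67 ± 0.16 SE (adjusted p = 0.00409).

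Of the 6 peroxiredoxins, the thiol peroxidases, 3 were lower in the old mice of both genotypes, 1 was higher and 2 did not pass the test. *Prdx2*, a cytosolic member abundant in neurons, was at 191, 187, 180.4 and 184 CPM in young WT mice and at 121, 117, 113 and 113.0 CPM in old ones. It was at 196, 188, 162 and 183 CPM in young and at 126.2, 122, 136 and 129 CPM in old V338Y mice. All old mice lay below all young mice, with log2 changes of -0.66 ± 0.04 in WT and -0.51 ± 0.06 in V338Y mice. *Prdx5*, found in mitochondria, peroxisomes and cytosol, changed by -0.62 ± 0.05 and -0.49 ± 0.06, and *Prdx3*, of the mitochondrial matrix, by -0.50 ± 0.06 and -0.40 ± 0.06. *Srxn1*, the sulfiredoxin that repairs overoxidised peroxiredoxins, changed by -0.45 ± 0.05 and -0.44 ± 0.07. *Prdx6*, which also has phospholipase activity and is known from astrocytes, was higher at 19 months, by a log2 of 0.42 ± 0.04 in WT and 0.38 ± 0.07 in V338Y mice. *Prdx1* and *Prdx4* did not pass the test, with log2 values of 0.11 and 0.19 in WT and 0.14 and 0.22 in V338Y mice. Of the exon bases of *Prdx5*, 19.1% overlap *Trmt112* on the opposite strand, and whether the counting used the strand is not given in the sources used here.

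All members tested of the thioredoxin system and the repair enzymes were lower. Outside the list, 14 genes of thioredoxin, glutaredoxin and methionine sulfoxide reduction were mixed. Of these, 4 were higher and 4 lower in WT and 6 higher and 2 lower in V338Y mice. The share that passed was 57.1% in each, against 62.8% and 48.8% of all genes. *Txn1* (cytosolic thioredoxin), *Txn2* (its mitochondrial counterpart) and *Txnrd1* (the cytosolic reductase) fell in both genotypes. Their log2 changes were -0.49, -0.29 and -0.30 in WT and -0.32, -0.20 and -0.23 in V338Y mice, with standard errors between 0.05 and 0.07. All 5 glutaredoxin and repair members fell too. *Glrx5*, needed for mitochondrial iron-sulfur clusters, changed by -0.59 ± 0.09 in WT and -0.36 ± 0.08 in V338Y mice. *Glrx*, the cytosolic glutaredoxin, changed by -0.48 in both, with SEs of 0.11 and 0.10. For *Park7*, encoding the redox-sensitive protein DJ-1, the change was -0.47 ± 0.05 and -0.48 ± 0.05, and for *Glrx3*, a cytosolic and nuclear iron-sulfur protein, -0.41 ± 0.07 and -0.42 ± 0.08. *Msra*, the methionine sulfoxide reductase, changed by -0.31 ± 0.08 and -0.38 ± 0.07. Of the 100-base windows of *Glrx3*, 9.7% also occur in another gene, chiefly *Gm12669*.

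For glutathione itself, the importer of its precursor was higher at 19 months in both genotypes, and *Gclm* and *Gsr* were lower. *Slc7a11* (chr3:49892526-50443614, minus strand, GRCm38) encodes xCT, the cystine and glutamate antiporter of astrocytes. It was at 85.0, 64.0, 72.6 and 78.4 CPM in young WT mice and at 73.7, 76.6, 60.6 and 86.1 CPM in young V338Y mice. At 19 months it was at 237, 239, 223 and 231 CPM in WT and at 200.03, 180.0, 189.5 and 194 CPM in V338Y mice. Young and old mice were far apart, by 3.15-fold in WT (log2 1.66 ± 0.06, adjusted p = 2.49e-15) and 2.56-fold in V338Y mice (log2 1.35 ± 0.08, adjusted p = 9.06e-08). *Gclm*, the modifier subunit of the enzyme limiting for glutathione synthesis, fell by 0.20 ± 0.06 on the log2 scale in WT and by 0.29 ± 0.09 in V338Y mice. *Gclc*, its catalytic subunit, did not pass in WT (-0.03 ± 0.06) and fell by 0.14 ± 0.05 in V338Y mice. *Gsr*, the reductase that restores glutathione, fell by 0.26 ± 0.07 and 0.24 ± 0.06. *Gss*, the synthetase, did not pass in either genotype, at -0.18 ± 0.10 and -0.13 ± 0.08.

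The glutathione transferases, which couple glutathione to reactive compounds, were divided. *Gstm1*, a mu-class enzyme prominent in astrocytes, rose by a log2 of 0.55 ± 0.05 in WT and 0.43 ± 0.09 in V338Y mice. *Gstm5* rose by 0.24 ± 0.05 and 0.26 ± 0.07, and *Gstk1*, of mitochondria and peroxisomes, by 0.46 ± 0.12 and 0.54 ± 0.11. Of the exon bases of *Gstm5*, 13.9% overlap *4933431E20Rik* on the opposite strand. *Gsto1*, the omega-class enzyme, had the largest fall of the list, from 19.6 ± 2.63 to 12.4 ± 0.616 CPM in WT (log2 -0.68 ± 0.10) and from 17.3 ± 2.07 to 11.5 ± 1.29 CPM in V338Y mice (log2 -0.60 ± 0.11). *Gsta4* did not pass, at 0.05 and 0.12. *Gstm7* was at 18.2, 14.9, 18.1 and 14.8 CPM in young and at 13.05, 13.2, 11.9 and 12.5 CPM in old WT mice, which did not overlap. In V338Y mice it was at 15.7, 14.3, 11.6 and 14.5 CPM and at 15.8, 15.05, 15.1 and 15.3 CPM, with overlap. Its log2 change was -0.35 ± 0.10 in WT (adjusted p = 0.00295) and 0.12 ± 0.09 in V338Y mice (adjusted p = 0.289).

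**Figure D2:**
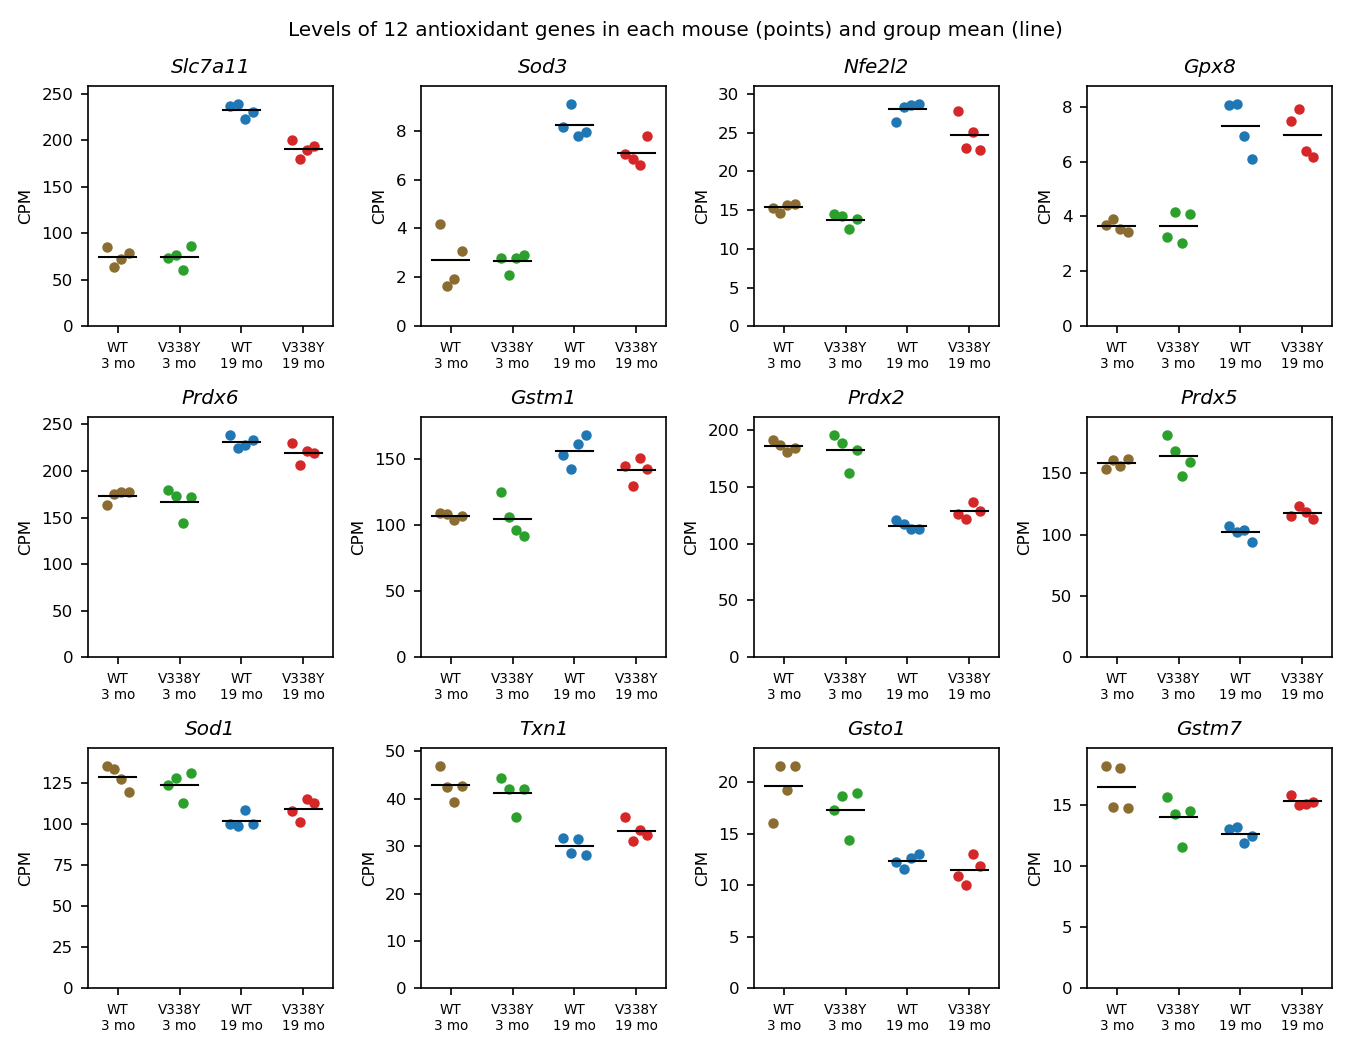
CPM of 12 members in each of the 4 mice of a group (points) with the group mean (line), with a linear axis from 0 in every panel. *Slc7a11*, *Sod3*, *Nfe2l2*, *Gpx8*, *Prdx6* and *Gstm1* are higher at 19 months, *Prdx2*, *Prdx5*, *Sod1*, *Txn1* and *Gsto1* lower, while the *Gstm7* points of the ages are apart in WT and overlap in V338Y mice.

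In the NRF2 pathway, the factor changed and its inhibitor did not pass the test. *Nfe2l2* was at 15.3, 14.7, 15.7 and 15.8 CPM in young and at 26.3, 28.4, 28.6 and 28.7 CPM in old WT mice. In V338Y mice it was at 14.55, 14.2, 12.5 and 13.8 CPM and at 27.8, 23.0, 25.1 and 22.7 CPM. The ages were clearly apart in both, with log2 changes of 0.87 ± 0.08 and 0.83 ± 0.08. *Keap1* had log2 values of -0.0020 ± 0.06 and 0.03 ± 0.05. *Hmox1*, the inducible haem oxygenase, rose by 0.51 ± 0.15 in WT and 0.76 ± 0.17 in V338Y mice, whereas *Hmox2*, the constitutive form, fell by 0.33 ± 0.06 and 0.38 ± 0.07. *Nqo1*, a quinone reductase and widely used NRF2 target, was at 0.12 ± 0.16 in WT without passing and rose by 0.40 ± 0.13 in V338Y mice. Of the exon bases of *Hmox2*, 40.2% overlap *Cdip1* on the opposite strand.

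By compartment, all 4 mitochondrial members tested (*Sod2*, *Prdx3*, *Txn2* and *Glrx5*) were lower at 19 months in both genotypes, with a median log2 change of -0.49 in WT and -0.38 in V338Y mice. Of 6 members found in mitochondria and elsewhere, 1 (*Gstk1*) was higher and 3 (*Prdx5*, *Gsr* and *Msra*) were lower in each genotype. Of 21 cytosolic members tested, 4 were higher and 11 lower in WT and 5 higher and 11 lower in V338Y mice. Of 6 members of the endoplasmic reticulum or secreted, 3 were higher and 1 lower in WT and 4 higher and 1 lower in V338Y mice. *Cat* of the peroxisome and *Slc7a11* of the plasma membrane were higher in both. Over all genes tested, 31.4% were higher and 31.5% lower in WT and 23.1% higher and 25.7% lower in V338Y mice. The groups are small, and no difference between compartments was tested.

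**Figure D3:**
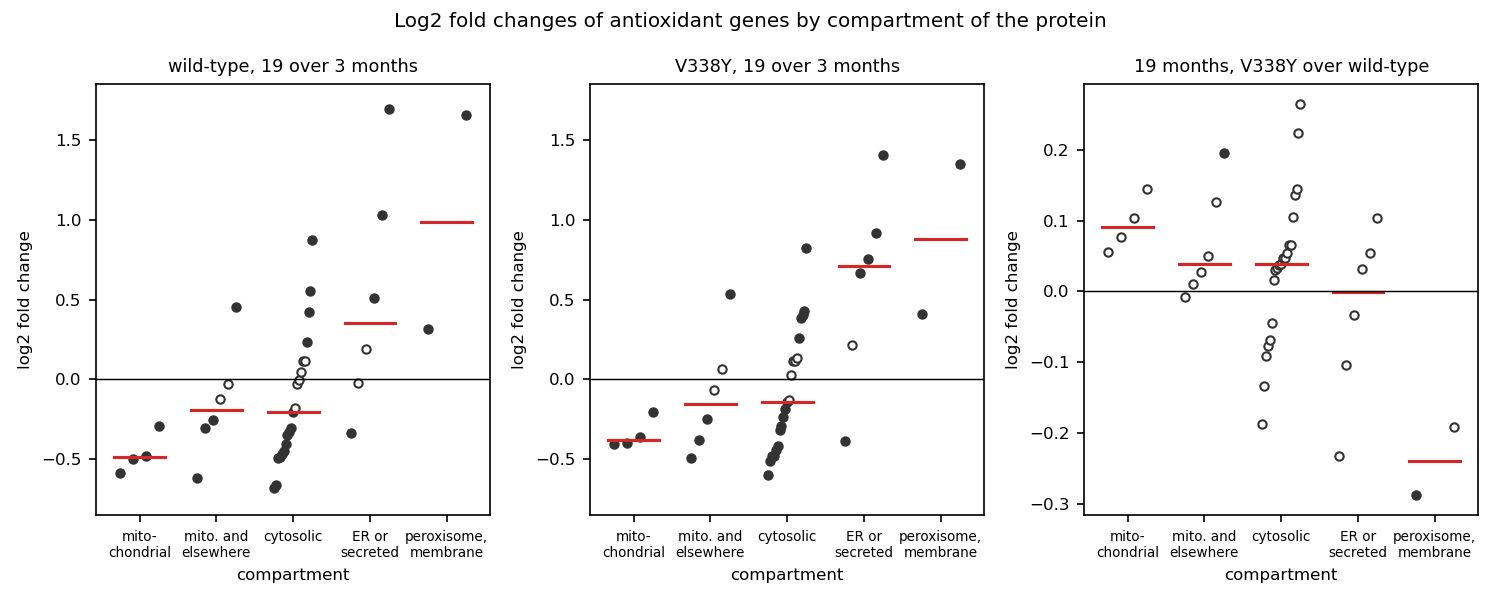
Log2 fold change of each member by compartment of its protein, with age in WT and in V338Y mice (19 over 3 months) and between genotypes at 19 months (V338Y over WT, with a narrower axis), where filled circles have an adjusted p under 0.05 and red lines are medians. The 4 mitochondrial members are below 0 in both age panels and above 0 in the genotype panel without a filled circle.

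The calls with age were looked at in V338Y mouse 14, the young mouse whose cerebellum markers were near those of the old mice. When it was the only library of 3 months in the fit, assumed to vary like the old group, 27 members passed, 10 higher and 17 lower, as did 45.7% of all genes. This mouse is also among those behind the calls above. The log2 change was then 1.74 for *Sod3*, 1.32 for *Slc7a11*, 0.79 for *Nfe2l2*, -0.54 for *Prdx2* and -0.51 for *Prdx5*. Without this mouse, 30 members passed, as did 8259 of 16649 genes. With the cerebellum markers as a covariate, 0 members passed in WT mice by edgeR, in a fit where the SE of *Sod2* was 0.47 instead of 0.04, and 0.329% of all genes passed. These markers separate the ages completely in both genotypes, in V338Y mice with only mouse 14 near the old ones. In V338Y mice 18 members and 26.1% of all genes passed with the same covariate. With red blood cell markers as the covariate, 18 members and 25.2% of all genes passed in WT and 11 members and 9.48% of all genes in V338Y mice. The part of the neuron, astrocyte, oligodendrocyte, endothelial and microglial markers in these changes was not tested.

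The next question was how V338Y differed from WT mice at 19 months. The study picked *Sod1*, *Prdx2*, *Prdx5*, *Gstm7* and *Gpx4* from these same samples, so their direction in these counts is not independent evidence. By quantitative PCR, the study also compared *Prdx5* between old mice of both genotypes, and reports that the result matched its sequencing data. Whether RNA of other mice was used for the PCR is not stated. In the fits here, 2 of the 39 members passed, *Prdx5* as higher and *Slc7a11* as lower, where 3.12% of all genes passed. Without adjustment, 11 members had a p under 0.05, as did 2660 of the 16420 genes tested. The members' log2 differences were above 0 in 27 and below 0 in 12, with a median of 0.04 against -0.00072 for all genes. The genotypes did not overlap for 8 members (*Sod2*, *Sod3*, *Gpx4*, *Prdx2*, *Prdx5*, *Txnrd1*, *Gstm7* and *Slc7a11*), against 9.31% of all genes.

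*Prdx5* (chr19:6906697-6910106, minus strand, GRCm38) was at 107, 102.5, 104 and 93.9 CPM in old WT and at 115, 123, 118.5 and 112 CPM in old V338Y mice. Every V338Y mouse lay above every WT mouse, and the difference was 14.5% (log2 0.20 ± 0.04, adjusted p = 0.0101, edgeR). At 3 months it was at 153, 161, 156 and 162 CPM in WT and at 181, 168, 148 and 159 CPM in V338Y mice, with overlap. The call at 19 months was lost without WT mouse 15, the library with the lowest total (adjusted p = 0.0548), without V338Y mouse 18 (adjusted p = 0.056) and in the fit of all 16 libraries (adjusted p = 0.163). For *Slc7a11*, the values given with age show every old V338Y mouse below every old WT mouse, by 18.1% (log2 -0.29 ± 0.04, adjusted p = 1.35e-05, edgeR). This call held with each mouse left out and was lost in the fit of all 16 libraries (adjusted p = 0.168). In that fit 116 of 16831 genes passed, against 512 of 16420 in the fit of the 2 old groups. Between the same groups, 2 of 7 astrocyte markers and 2 of 8 microglial markers were lower in V338Y mice and 0 were higher, with medians of -0.12 and -0.11 on the log2 scale, and astrocyte markers summed to between 6450 and 7410 CPM in WT and between 6040 and 7020 CPM in V338Y mice. Of 7 meningeal markers 3 were lower and 1 higher (median -0.24), of 4 pituitary markers 2 were lower (median -2.33), and of 8 neuron markers 0 passed by edgeR (median 0.08). Red blood cell markers were between 437 and 900 CPM in WT and between 384 and 458 CPM in V338Y mice, and choroid plexus markers (5 genes) between 218 and 979 CPM and between 152 and 2270 CPM. The part of these cell types in the differences of *Slc7a11* and *Prdx5* was not tested.

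The other members that the study names did not pass the adjusted threshold, although *Prdx2*, *Gstm7*, *Gpx4* and *Sod1* were among those with an unadjusted p under 0.05. The study lists these genes by p-values without adjustment. *Prdx2* differed by a log2 of 0.14 ± 0.04 (adjusted p = 0.0593), *Gstm7* by 0.26 ± 0.08 (adjusted p = 0.0841), *Gpx4* by 0.13 ± 0.04 (adjusted p = 0.101) and *Sod1* by 0.11 ± 0.05 (adjusted p = 0.25). *Gsr*, which is not among the antioxidant genes that the study lists, was at 27.1 CPM in V338Y and 27.3 CPM in WT mice. Its log2 difference was -0.0073 ± 0.07 (adjusted p = 0.979, edgeR). *Prdx2* passed when WT mouse 12 was left out (adjusted p = 0.04), without V338Y mouse 18 (adjusted p = 0.044), with library sizes as the only scaling (adjusted p = 0.0247) and with no filter on counts (adjusted p = 0.0202). Of the 100-base windows of *Gpx4*, 25.2% also occur in another gene, chiefly the pseudogene *Gpx4-ps2*. The mitochondrial members, all lower with age, had log2 differences between genotypes from 0.06 to 0.14, and 0 of 4 passed by edgeR.

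At 3 months, 0 of the 39 members passed by edgeR or DESeq2, where 0.0616% of all genes passed. Of the 16241 genes tested, 815 had an unadjusted p under 0.05 by edgeR, as did 2 members. These were *Cat*, with a log2 difference of -0.29 ± 0.07 (adjusted p = 0.746), and *Gpx3*, with -0.60 ± 0.17 (adjusted p = 0.848). *Cat* was at 36.7, 40.85, 34.5 and 36.7 CPM in WT and at 30.8, 30.7, 28.2 and 31.6 CPM in V338Y mice, which did not overlap. *Prdx5* and *Slc7a11*, the members called at 19 months, had log2 differences of 0.06 ± 0.06 and -0.0035 ± 0.10 at 3 months.

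**Figure D4:**
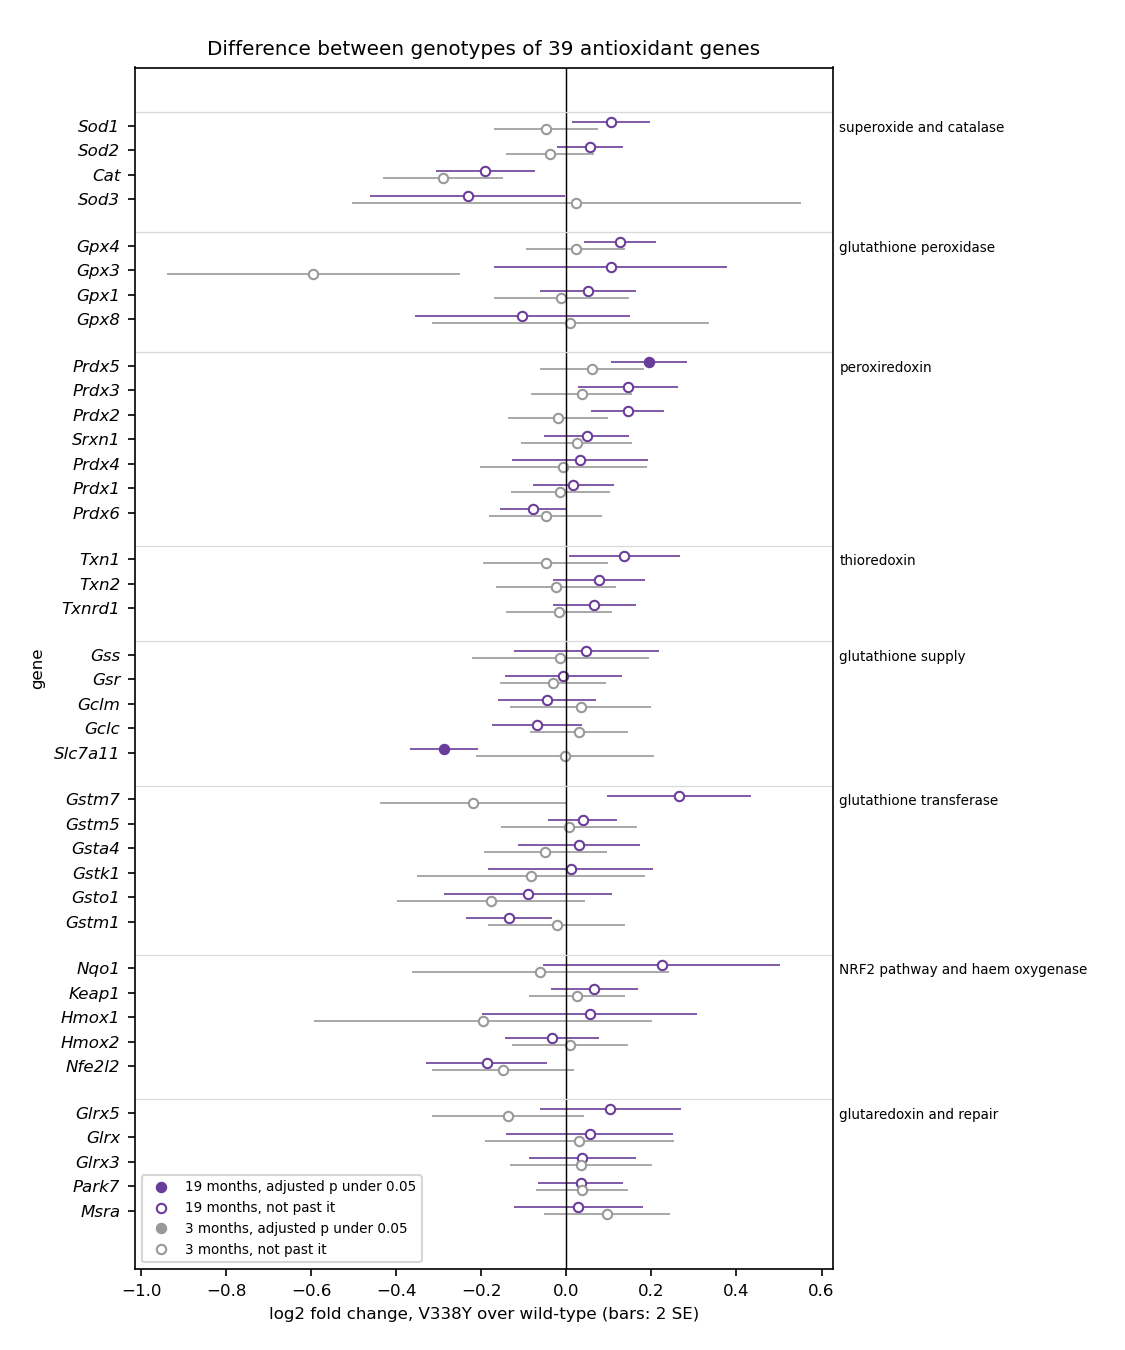
Log2 fold change of V338Y over WT mice for the 39 members at 19 months (purple) and at 3 months (grey), with 2 standard errors either way and filled circles where the adjusted p was under 0.05. *Prdx5* to the right and *Slc7a11* to the left are the filled circles, and no grey circle is filled.

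All 16 libraries entered the test of whether age acted differently in the genotypes, an interaction term. No member passed (0 of 39 by edgeR and by DESeq2), where 0.0535% of all genes did. Without adjustment, 4 members had a p under 0.05 by edgeR, as did 1723 of the 16831 genes tested. For *Gstm7* the change was higher by 0.49 in V338Y mice (interval of 2 SE from 0.22 to 0.76, adjusted p = 0.221), and for *Gpx3* by 0.71 (0.27 to 1.15, adjusted p = 0.259). For *Prdx2* it was higher by 0.17 (0.02 to 0.33, adjusted p = 0.458), and for *Slc7a11* lower, at -0.28 (-0.52 to -0.04, adjusted p = 0.448). The calls of *Gstm7* in WT and of *Gpx3*, *Gclc* and *Nqo1* in V338Y mice are therefore not shown to differ between the genotypes.

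Beyond the list, 73 further genes of the same pathways were looked at. In WT mice 66 were tested, of which 28 were higher and 15 lower at 19 months, with a median log2 change of 0.16. The share that passed, 65.2%, was near the 62.8% of all genes. In V338Y mice 65 were tested, 28 higher and 11 lower, with a median of 0.15 and a share of 60% that passed, against 48.8% of all genes. The largest rises in WT mice were *Cybb* (log2 2.95 ± 0.21), the phagocyte NADPH oxidase subunit that makes superoxide, *Maff* (2.07 ± 0.24), a small partner of NRF2, and *Gstm2* (1.997 ± 0.21). In V338Y mice they were *Cybb* (2.52 ± 0.19), *Maff* (1.90 ± 0.24) and *Ggt5* (1.78 ± 0.19), a gamma-glutamyl transferase. The largest falls were *Chac1* (-0.97 ± 0.15), which degrades glutathione, *Sesn2* (-0.92 ± 0.11) and *Rbx1* (-0.73 ± 0.05), of the ubiquitin ligase that acts on NRF2, in WT mice. In V338Y mice they were *Rbx1* (-0.49 ± 0.06), *Blvra* (-0.42 ± 0.09), the biliverdin reductase, and *Glrx2* (-0.39 ± 0.07), the mitochondrial glutaredoxin. Between genotypes, 0 of these genes passed by edgeR at either age.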

How the data were processed

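For each of the 16 libraries the authors deposited expected counts per Ensembl gene, estimated from single-end reads without normalization, and all 1495 deposited values of 10000 or more end in 0. The study's methods name RSEM, Ensembl 75 and GRCm37, the submitters' processing notes STAR 2.4.2a, featureCounts, bcl2fastq 1.8.4 and GRCm38, and which of them made the table is not given in the sources used here. Identifiers were matched to GENCODE M21 (GRCm38) for symbols (37607 of 39179), positions and exon lengths. RSEM divides reads among similar genes, which leaves counts of close copies uncertain.

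For each pair of groups, genes reaching 10 counts in 2 or more mice of either group entered a robust quasi-likelihood test in edgeR 4.0.16 (R 4.3.3), after TMM normalization, with Benjamini-Hochberg adjustment over all genes and a threshold of 0.05. The difference between age effects was an interaction in a fit of all 16 libraries. CPM were scaled by TMM over all 16 libraries. The ± values are SE for log2 changes and SD over 4 mice for CPM. Samples were grouped by the labelled genotype and age, which also call each a separate mouse; library totals limit low genes most. Replicates did not agree within sampling noise, so none was merged.

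The members and gene lists were chosen with earlier results of these data known. Named members are those past the threshold between genotypes or in the interaction and the 8 largest rises and falls with age. They also include the genes that the study names, *Gsr*, those not tested, *Nfe2l2* and *Keap1*. Others were added after their values were seen. Alternatives were DESeq2 1.42.0, the likelihood-ratio test, RLE, library size only, other count filters, the study's age threshold of 1e-05, a fit of all libraries, cerebellum and red blood cell markers as covariates, and each mouse left out. The fit with V338Y mouse 14 alone was chosen after seeing the data. The steps were tested on simulated counts. Protein sequences were not used here.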

Additional observations from a re-analysis of the deposited data

Results flagged for a closer look

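In 11 of 156 groups of 4 mice, the gap between the highest or lowest mouse and the nearest other exceeded Dixon's 95% critical value as a share of the group's range, where chance gives about 1 in 20 groups. In young WT mice these were *Gpx4* with 130.6 CPM in mouse 9 (others 124.6 to 125.4), *Prdx6* with 163.4 CPM in mouse 9 (175.6 to 177.9), *Gclm* with 61.15 CPM in mouse 10 (56.7 to 56.92), *Gstm5* with 90.5 CPM in mouse 11 (102.4 to 104.4) and *Hmox2* with 56.62 CPM in mouse 12 (61.97 to 62.54). In young V338Y mice they were *Sod3* with 2.115 CPM in mouse 14 (2.807 to 2.911) and *Gpx3* with 4.912 CPM in mouse 13 (3.224 to 3.267). In old WT mice they were *Sod1* with 108.3 CPM in mouse 14 (98.57 to 100.1), *Cat* with 41.14 CPM in mouse 14 (47.38 to 48.65) and *Nfe2l2* with 26.33 CPM in mouse 12 (28.36 to 28.72). In old V338Y mice it was *Gclm* with 53.25 CPM in mouse 20 (46.34 to 47.09).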

How the results depend on the processing

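The 29 members called with age in WT mice were 18 at the study's threshold of 1e-05. They were 0 with the cerebellum covariate and 18 with the red blood cell covariate. The 31 in V338Y mice were 4, 18 and 11 in the same order. At 1e-05, 4316 of 16101 genes passed in WT and 822 of 16770 in V338Y mice. With 1 mouse left out, the members called were from 29 to 30 in WT, where all 29 kept their call. In V338Y mice they were from 26 to 31, and *Gclc*, *Gclm*, *Nqo1*, *Sod1* and *Txn2* were lost at least once. Over all genes, from 9340 to 9986 passed in WT and from 7013 to 8573 in V338Y mice. Between genotypes at 19 months the 2 calls became 0 in the fit of all 16 libraries, where 116 of 16831 genes passed, against 512 of 16420 before. They became from 1 to 3 with 1 mouse left out, with 1 without WT mouse 15. Over all genes, from 287 to 611 passed with 1 mouse left out. At 3 months and for the interaction the count was 0 under every alternative run. With the cerebellum covariate *Sod3* turned to -2.64 and *Gsto1* to 1.83 in WT mice, with adjusted p of 0.735 and 0.548 (edgeR), and the cause was not tested. The difference of *Gsr* at 19 months turned to 0.013 with library size only, 0.0044 with no count filter and 0.065 with the red blood cell covariate, and was from -0.065 to 0.026 with 1 mouse left out. With library size only, the median level of the members was 54.0 CPM in young WT and 41.2 CPM in old V338Y mice, and higher genes made up 39.8% of all calls with age in WT and 39.1% in V338Y mice, against 49.9% and 47.4% with TMM; at 19 months they made up 57.6% against 38.3% between genotypes. No paired analysis was possible because the mouse numbers name single animals, and compared groups share fewer than 2 of them.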

Other observations

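The genes beside the members that failed the count filter were also near 0. On chromosome 19, *Gstp2*, *Gstp3*, *Cdk2ap2*, *Pitpnm1*, *Coro1b* and *Rps6kb2* were listed at 0 in all 16 libraries, as was *Gstp1*, while *Ndufv1*, next to them, had 35585 counts in total. On chromosome 16, *Tango2* was listed at 0, beside the 9 counts of *Txnrd2*, while *Gnb1l* had 877. A level at or near 0 for *Gstp1* and *Txnrd2* in this table therefore says nothing of their expression.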
